A study of Danio rerio with 6 samples.

Results

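The genes described here encode membrane carriers of organic anions, organic cations and bile acids, and they were measured in liver of zebrafish (Danio rerio) offspring. Members were all rows of the deposited count table whose gene symbol, in any case, starts with slco, slc22a, slc10a, slc47a or slc51, which gave 42 of 32520 rows. Liver of offspring from cryopreserved sperm (cryo replicates 1 to 3) was compared with liver of offspring from fresh sperm, the control (fresh replicates 1 to 3). Fish of all 6 libraries were wild type, of the AB laboratory strain, and share a single batch label. The libraries are described as biological replicates, but age, sex and any pooling of fish are not given in the labels, so each p-value reflects how much these particular libraries varied. The groups follow the treatment labels. The sample titles use F for the fresh and C for the cryopreserved group, but those letters would equally suit frozen and control, and crossed labels would turn every direction round.

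Hepatocytes take up anionic drugs, hormones and conjugates from blood through organic anion transporting polypeptides, the products of slco genes, and take up cations, other anions and carnitine through slc22a carriers. Bile acids return to the hepatocyte through a sodium-coupled carrier of the slc10a family and through slco carriers. On the way out, slc47a exchangers of the MATE type pass cations into bile or urine, and the slc51 pair moves bile acids and steroids back to blood. These roles were worked out mainly in mammals, where the liver is a principal site of this traffic. Symbols in capitals are those that the name table gives in that form, and several may stand for more than 1 zebrafish gene. Near-identical neighbouring copies may share reads, which makes values of single copies uncertain.

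Total counts were 16146121, 8277183 and 10409786 in cryo replicates 1, 2 and 3, against 16885619 to 17606733 in the fresh libraries. Vitellogenin, the egg yolk precursor, took 17.4% and 12.4% of the counts in cryo replicates 2 and 3 and at most 6.04e-04% in the other libraries. No fresh library held it at this level, and cryo replicate 1 was the only cryo library without it. Differences that go with vitellogenin thus cannot be told apart from those of sperm treatment with these libraries. The 8 hepatocyte markers summed to between 129692 and 207787 CPM in cryo and between 107739 and 120900 CPM in fresh libraries. CPM is the count scaled to the TMM-normalised library size, summed over the genes that passed the filter on low counts. Of the 7 vitellogenin genes only vtg5 passed that filter, so most vitellogenin counts are outside these sizes. The transferrin gene tfa gave between 78269 and 127072 CPM of this in cryo and between 22260 and 41418 CPM in fresh libraries. The other hepatocyte markers summed to 80714, 42090 and 51423 CPM in cryo replicates 1, 2 and 3, against 79482, 81462 and 93254 CPM in fresh replicates 1, 2 and 3. Of all 8, 6 had a negative log2 change and the median was -0.34. Exocrine pancreas markers summed to between 1045 and 3247 CPM in cryo and between 238 and 458 CPM in fresh libraries. All 9 tested pancreas genes were higher in every cryo library than in any fresh one, where 11.2% of all tested genes were, and 6 passed edgeR's test at an adjusted p under 0.05, where 1.02% of all tested genes passed as higher. Macrophage markers summed to between 1270 and 1943 CPM in cryo and between 199.6 and 1415 CPM in fresh libraries, mostly from a single copy of MFAP4 (ENSDARG00000090557). All 7 tested macrophage genes had a positive change, with a median log2 of 1.75. Of these, 4 did not overlap between groups and 2 passed as higher in cryo, where 11.2% and 1.02% of all tested genes did. Most of the 7, and the 2 that passed, were copies of MFAP4. Of these 2, ENSDARG00000090783 had 41, 19 and 20 counts in the cryo libraries, against 9, 3 and 3 in the fresh ones. It reached the filter on low counts in cryo libraries alone, so its groups had to differ. The shares over all tested genes are not a like measure for it. The marker marco overlapped between groups, csf1ra did not overlap, and neither passed (edgeR adjusted p = 0.349 and 0.0804). The listed mpeg1.1 was not matched. Intestine markers summed to 4.53, 0.709 and 3.89 CPM in cryo replicates 1, 2 and 3, against 0.941, 0.980 and 0.718 CPM in fresh replicates 1, 2 and 3. Of this list VIL1 had 45, 4 and 28 counts in cryo replicates 1, 2 and 3, against 5, 0 and 0 counts in fresh replicates 1, 2 and 3. The other matched intestine genes overlapped between groups, with FABP6 at 0 throughout, and none of the list passed the filter. The kidney transporter genes SLC12A1 and SLC12A3 stayed at or below 0.12 CPM. The kidney tubule list as a whole summed to between 105 and 484 CPM in cryo and between 172 and 415 CPM in fresh libraries, most of it from the phosphate carrier gene SLC20A1. The cadherin gene CDH17 of that list had 18.2, 21.1 and 10.7 CPM in cryo replicates 1, 2 and 3, against 7.06, 8.55 and 8.02 CPM in fresh replicates 1, 2 and 3, with a log2 change of 1.08 ± 0.31 that did not pass. Biliary markers summed to between 366 and 727 CPM in cryo and between 327 and 443 CPM in fresh libraries. Red blood cell markers summed to between 77.4 and 214 CPM in cryo and between 68.6 and 97.0 CPM in fresh libraries, and brain and endothelium markers to between 63.6 and 105 CPM in cryo and between 107 and 118 CPM in fresh libraries. In whole tissue, fewer cells of a type and less RNA per cell cannot be told apart, and the part of these differences in the carrier values was not tested.

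Of the 42 carrier genes, 37 had at least 1 count, 20 passed the filter on low counts and were tested, and 22 were too low. A single carrier, the MATE exchanger gene slc47a2.1, changed at an adjusted p under 0.05 by edgeR's quasi-likelihood test, and it was lower in the cryopreserved group. Over all 12674 tested genes 1.98% passed in either direction, 0.963% as lower and 1.02% as higher. The tested carriers had a median log2 change of -0.37, cryopreserved over fresh, with 14 negative and 6 positive. Over all tested genes the median was 0.0015 and 49.9% were negative. At an unadjusted p under 0.05 there were 8 carriers, 6 lower and 2 higher, where all tested genes gave 18.5%. The cryo and fresh values did not overlap for 10 of the 20, where all tested genes gave 24.6%. Of these 20, slc47a2.1 and SLCO1C1 reached the filter in fresh libraries alone, and SLCO3A1 and slc22a21 in cryo libraries alone, so those 4 entered the test through their higher group and had to differ. Among the other 16 the groups did not overlap for 6, and 5 had an unadjusted p under 0.05. The shares over all tested genes were not limited in this way, so they are not a like measure for these 16. Gene lengths were not used here, so levels are compared between libraries for each gene and never between genes. Shares and ratios of counts between genes are likewise read only across libraries.

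**Figure D1:**
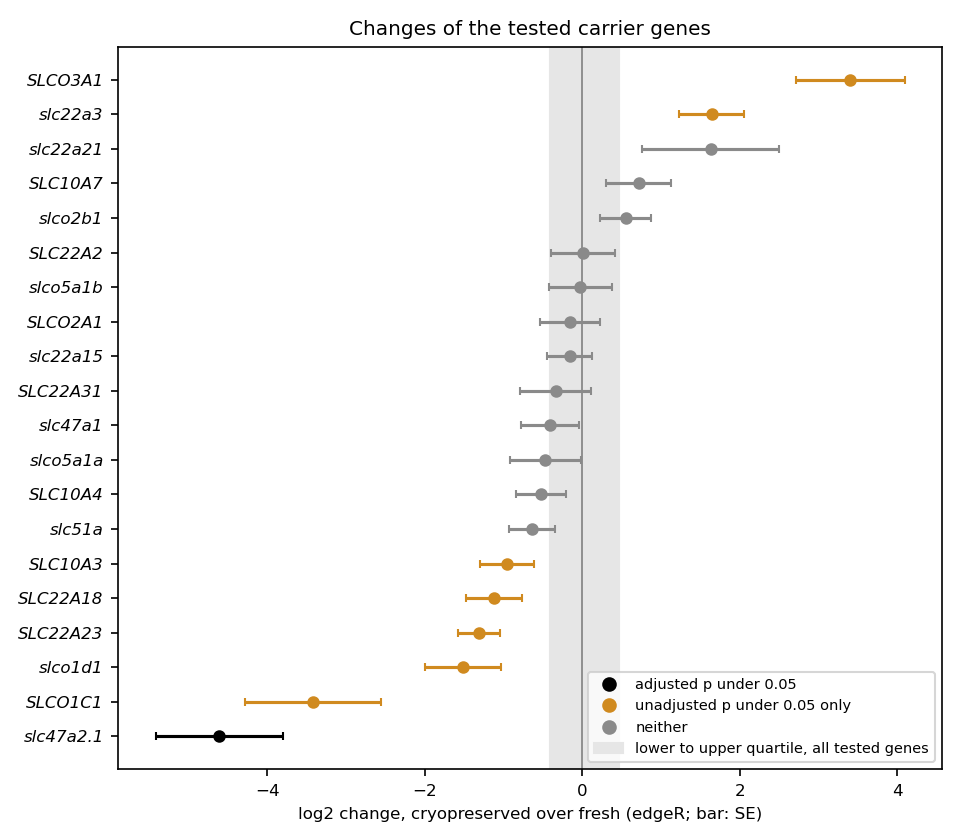
Log2 change of each of the 20 tested carrier genes, cryopreserved over fresh, with its standard error as a bar; the grey band runs from the lower to the upper quartile of all tested genes. The gene slc47a2.1 at -4.61 is the only one past an adjusted p of 0.05, and 7 more, from SLCO1C1 at -3.42 to SLCO3A1 at 3.40, pass without adjustment alone.

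Among the organic anion transporting polypeptides, slco1d1 was below every fresh library in every cryo library. Its product is a broad uptake carrier of steroid conjugates and other anions that was characterised in zebrafish. It had 870.1, 251 and 412 CPM in cryo replicates 1, 2 and 3, against 1133, 1674 and 1567 CPM in fresh replicates 1, 2 and 3. Cryo replicate 1, the cryo library without vitellogenin RNA, lay nearest to the fresh range. The means were 511 ± 321 CPM in cryo and 1458 ± 286 CPM in fresh libraries (SD, n = 3 each). The log2 change was -1.51 ± 0.48 (SE), a level 2.85-fold lower, and it did not pass (edgeR adjusted p = 0.151; 0.0179 to 0.390 over the alternatives). DESeq2 called it, at an adjusted p of 0.0332. So did edgeR without cryo replicate 1, at 0.0179 and a log2 change of -2.12, while with cryo replicate 1 as the only cryo library the change was -0.71.

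The gene took most of the family's counts in every library. It made up 88.2%, 70.0% and 66.7% of all slco counts in cryo replicates 1, 2 and 3, against 90.7%, 92.4% and 88.3% in fresh replicates 1, 2 and 3. These shares set the gene against the other slco genes of the same library and depend on no scaling between libraries. SLCO2A1 took 9.06%, 24.8% and 29.6% of all slco counts in cryo replicates 1, 2 and 3. In fresh replicates 1, 2 and 3 it took 8.23%, 6.29% and 10.5%. All slco genes together summed to 986, 359 and 617 CPM in cryo replicates 1, 2 and 3, against 1249, 1810 and 1775 CPM in fresh replicates 1, 2 and 3.

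SLCO2A1, whose product takes up prostaglandins in mammals, overlapped between the groups. It had 89.3, 89.1 and 183 CPM in cryo replicates 1, 2 and 3, against 103, 114 and 186 CPM in fresh replicates 1, 2 and 3. Replicate 3 was the highest in both groups, with a log2 change of -0.16 ± 0.39. The gene slco2b1, whose mammalian relative is a broad carrier of liver and gut, had 13.8, 9.22 and 6.77 CPM in cryo replicates 1, 2 and 3, against 6.17, 6.86 and 7.42 CPM in fresh replicates 1, 2 and 3. Its change of 0.55 ± 0.32 did not pass (edgeR adjusted p = 0.411).

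SLCO1C1 and SLCO3A1 differed by more in ratio, at levels of a few CPM or less. SLCO1C1, known in mammals as a thyroxine carrier at the blood-brain barrier, had 0, 1 and 2 counts in cryo replicates 1, 2 and 3, against 16, 19 and 26 counts in fresh replicates 1, 2 and 3. Over the groups that is a ratio of 12.3, fresh over cryo, with a 95% counting interval of 4.02 to 61.3 that covers counting error only, and it did not pass (edgeR adjusted p = 0.0892; 0.0229 to 0.296 over the alternatives). SLCO3A1 (ENSDARG00000018726), a prostaglandin and thyroxine carrier in mammals, went the other way, with 26, 9 and 30 counts in cryo replicates 1, 2 and 3, against 3, 6 and 1 counts in fresh replicates 1, 2 and 3. Its log2 change of 3.40 ± 0.69 did not pass (edgeR adjusted p = 0.0541, and 5.93e-04 to 0.195 over the alternatives). SLCO3A1 reached the filter on low counts in cryo libraries alone and SLCO1C1 in fresh libraries alone. Both thus had to differ between the groups to be tested. A further row under the symbol SLCO3A1 (ENSDARG00000068296) had no count in any library.

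Both orphan carriers slco5a1a and slco5a1b overlapped between groups. The gene slco5a1b had 9.96, 6.81 and 11.0 CPM in cryo replicates 1, 2 and 3, against 4.76, 12.1 and 11.4 CPM in fresh replicates 1, 2 and 3. The gene slco5a1a ranged from 0.841 to 1.55 CPM in cryo and from 1.18 to 1.74 CPM in fresh libraries.

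**Figure D2:**
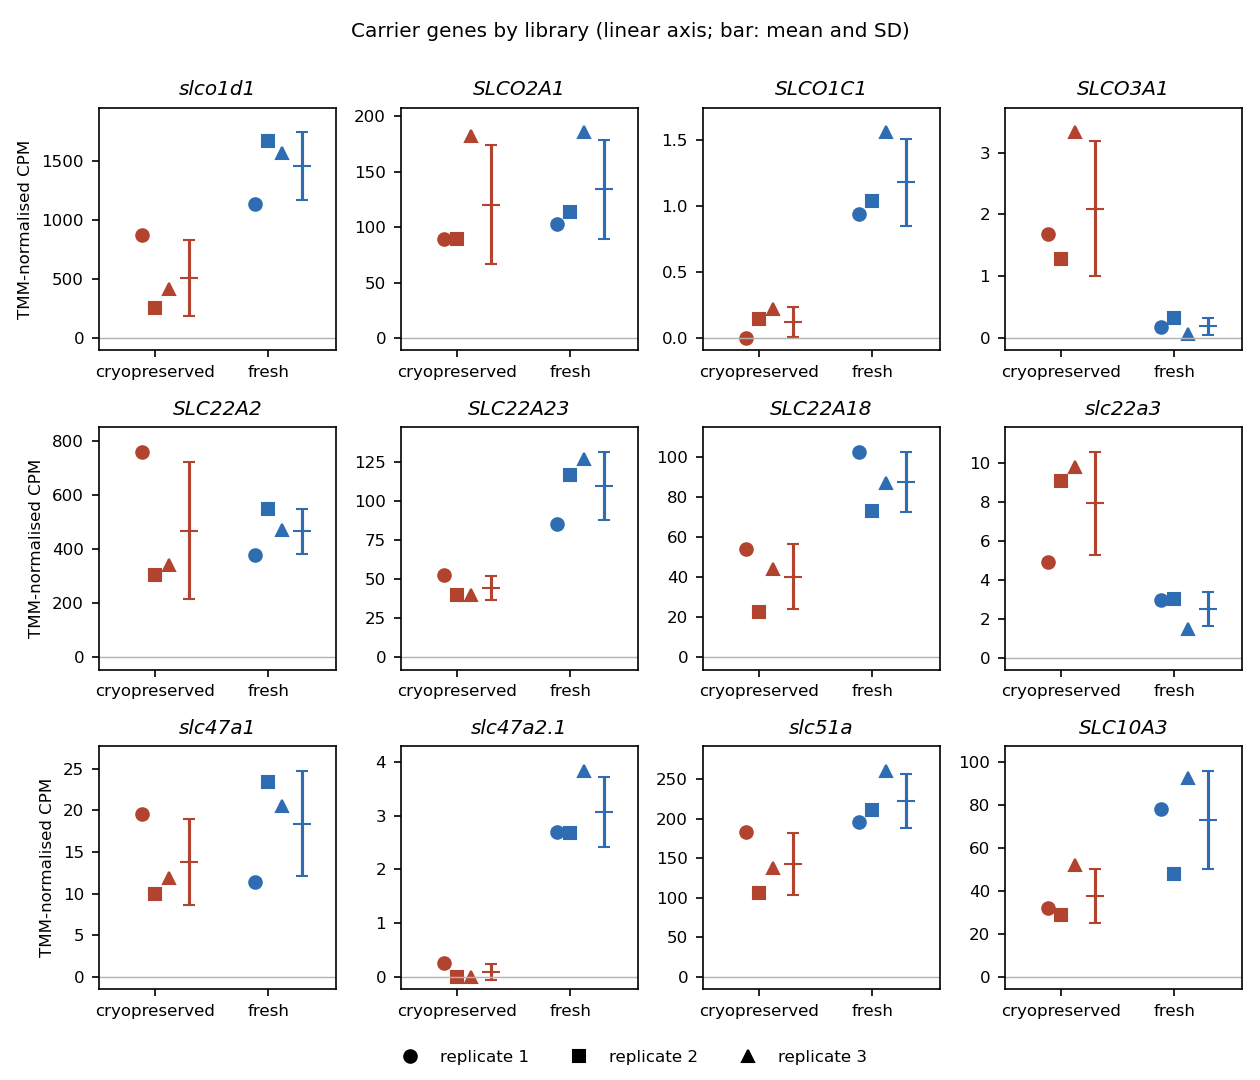
TMM-normalised CPM of 12 carrier genes in each library on linear axes, with the cryopreserved group left of the fresh group, a marker shape per replicate and a bar for the mean and SD of 3 libraries. The gene slco1d1 has all 3 cryo libraries (251 to 870.1 CPM) under all 3 fresh ones (1133 to 1674 CPM), while SLC22A2 overlaps, with cryo replicate 1 the highest of the 6 libraries.

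In the slc22a family SLC22A2, an organic cation carrier for which the RefSeq table lists oct1 as a synonym, had nearly equal mean levels in both groups and a wider spread in the cryopreserved one. It had 759.5, 303 and 341 CPM in cryo replicates 1, 2 and 3, against 378, 546 and 471 CPM in fresh replicates 1, 2 and 3. Cryo replicate 1 was the highest library and cryo replicates 2 and 3, with the vitellogenin RNA, were the lowest. The means were 468 ± 253 CPM in cryo and 465 ± 84.1 CPM in fresh libraries (SD, n = 3 each), with a log2 change of 0.01 ± 0.41. Its sign changed with the libraries: the change was -0.52 without cryo replicate 1 and 0.75 with cryo replicate 1 as the only cryo library.

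SLC22A23 and SLC22A18 were below every fresh library in every cryo library. SLC22A23, an orphan member of the family, had 53.1, 39.7 and 40.0 CPM in cryo replicates 1, 2 and 3, against 85.4, 117 and 127 CPM in fresh replicates 1, 2 and 3. Its spread was narrow, and its log2 change of -1.31 ± 0.27 narrowly missed the threshold (edgeR adjusted p = 0.0547; 0.00123 to 0.237 over the alternatives). It passed by DESeq2 (adjusted p = 0.00123), by limma-voom (0.0497), without the filter on low counts (0.0342) and without cryo replicate 1 (0.0309). SLC22A18, which lies in an imprinted region in mammals, had 54.1, 22.4 and 44.0 CPM in cryo replicates 1, 2 and 3, against 103, 73.1 and 86.7 CPM in fresh replicates 1, 2 and 3. Its change of -1.12 ± 0.35 did not pass (edgeR adjusted p = 0.145).

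The monoamine and cation carrier gene slc22a3 had the opposite pattern at a low level. It had 4.92, 9.08 and 9.77 CPM in cryo replicates 1, 2 and 3, against 2.998, 3.05 and 1.496 CPM in fresh replicates 1, 2 and 3. Cryo replicates 2 and 3 stood highest, and the groups did not overlap. Its log2 change was 1.64 ± 0.42 (edgeR adjusted p = 0.0892; 0.00820 to 0.376 over the alternatives), and it passed by DESeq2 and without cryo replicate 1. The carnitine carrier relative slc22a21 had 16, 7 and 11 counts in cryo replicates 1, 2 and 3, against 0, 9 and 9 counts in fresh replicates 1, 2 and 3. Scaled to CPM that was 1.035, 0.993 and 1.22 in the cryo libraries, against 0, 0.49 and 0.538 in the fresh libraries. Its log2 change of 1.63 ± 0.87 did not pass (edgeR adjusted p = 0.366). The gene reached the filter on low counts in cryo libraries alone, so the groups had to differ.

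The other tested members of the family overlapped between groups. The gene slc22a15 had 43.1, 47.8 and 42.3 CPM in cryo replicates 1, 2 and 3, against 60.0, 31.6 and 57.4 CPM in fresh replicates 1, 2 and 3. The orphan SLC22A31 had 23.2, 37.6 and 37.1 CPM in cryo replicates 1, 2 and 3, against 34.5, 19.6 and 69.6 CPM in fresh replicates 1, 2 and 3. For both the fresh values enclosed the cryo values, and neither change (-0.16 ± 0.29 and -0.34 ± 0.45) passed.

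In the slc10a family the bile acid carriers themselves were barely counted. SLC10A1, whose mammalian product is the sodium-coupled bile acid uptake carrier of hepatocytes, had 5, 0 and 1 counts in cryo replicates 1, 2 and 3, against 4, 0 and 5 counts in fresh replicates 1, 2 and 3. SLC10A2, the ileal bile acid carrier of mammals, had 3 counts in fresh replicate 2 and none elsewhere. A floor of 3 counts over a group corresponded to 0.0952 CPM in the cryo and 0.0576 CPM in the fresh group, so no difference was detectable for these genes at this depth.

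The remaining slc10a genes, which are not known as bile acid uptake carriers, were well counted. SLC10A3 had 31.9, 28.8 and 52.3 CPM in cryo replicates 1, 2 and 3, against 78.3, 47.9 and 92.8 CPM in fresh replicates 1, 2 and 3. Cryo replicate 3 overlapped fresh replicate 2, and the change of -0.95 ± 0.35 did not pass (edgeR adjusted p = 0.197). SLC10A4, a synaptic vesicle protein gene in mammals, had 11.5, 5.39 and 9.33 CPM in cryo replicates 1, 2 and 3, against 11.7, 14.1 and 12.2 CPM in fresh replicates 1, 2 and 3. Cryo replicate 1 lay just under fresh replicate 1, so the groups did not overlap, by a margin smaller than the spread in either group. SLC10A7 had 4.20, 11.9 and 8.22 CPM in cryo replicates 1, 2 and 3, against 5.997, 4.52 and 4.13 CPM in fresh replicates 1, 2 and 3, with a change of 0.72 ± 0.41 that did not pass. With cryo replicate 1 as the only cryo library its change was -0.17.

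Of the efflux carriers, slc47a2.1 was nearly silent in the cryopreserved group. This MATE-type exchanger gene had 4, 0 and 0 counts in cryo replicates 1, 2 and 3, against 46, 49 and 64 counts in fresh replicates 1, 2 and 3. In CPM that was 0.259, 0 and 0 in the cryo libraries, against 2.70, 2.67 and 3.83 in the fresh libraries. The log2 change was -4.61 ± 0.81 (edgeR adjusted p = 0.0368, and 4.64e-05 to 0.159 over the alternatives). The gene reached the filter on low counts in fresh libraries alone. That every cryo library lay below every fresh one was thus fixed by its entry into the test. The call depended on which libraries were kept. It held without cryo replicate 1, and was lost without cryo replicate 2 (0.0728), cryo replicate 3 (0.0816), fresh replicate 1 (0.1005), fresh replicate 2 (0.118) and fresh replicate 3 (0.159), at log2 changes from -4.67 to -4.11 in those 5 fits. With cryo replicate 1 as the only cryo library the change was -3.49 (edgeR adjusted p = 0.0955).

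The neighbouring copy slc47a1 overlapped between the groups. In the gene order of the RefSeq table for the GRCz12tu assembly, slc47a1, slc47a2.1 and slc47a2.2 follow each other with no protein-coding gene between them. The gene slc47a1 had 19.6, 9.93 and 11.9 CPM in cryo replicates 1, 2 and 3, against 11.3, 23.4 and 20.5 CPM in fresh replicates 1, 2 and 3. Fresh replicate 1 was among the low libraries, and the change of -0.41 ± 0.37 did not pass (edgeR adjusted p = 0.606). Of the counts of both genes together, slc47a2.1 took 1.303%, 0% and 0% in cryo replicates 1, 2 and 3, against 19.2%, 10.2% and 15.7% in fresh replicates 1, 2 and 3. The third copy, slc47a2.2, had 1 count in the cryo group and 8 in the fresh group, a ratio of 4.84, fresh over cryo, with a counting interval of 0.649 to 215.

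The gene slc51a, which encodes the alpha subunit of the bile acid and steroid exporter to blood, did not pass, with every cryo library under every fresh one. It had 183, 106 and 138 CPM in cryo replicates 1, 2 and 3, against 195, 211 and 259.9 CPM in fresh replicates 1, 2 and 3. Cryo replicate 1 lay just under fresh replicate 1, and cryo replicate 2 was the lowest. The log2 change was -0.64 ± 0.29 (edgeR adjusted p = 0.295). Its partner subunit gene slc51b was not analysed here.

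**Figure D3:**
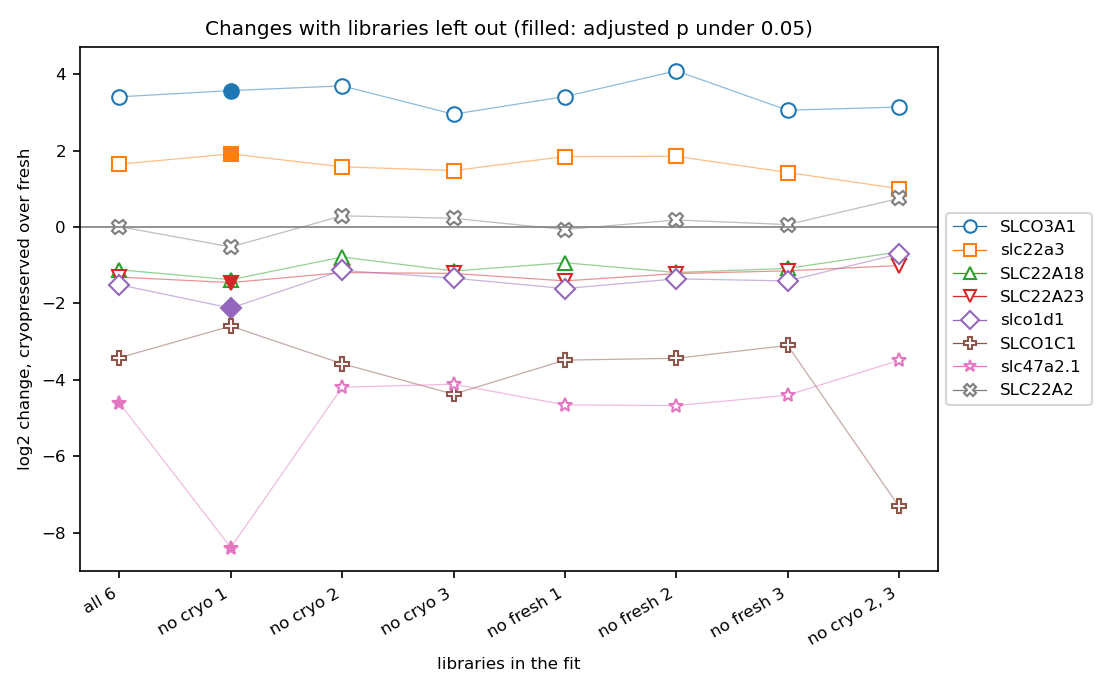
Log2 change, cryopreserved over fresh, of 8 carrier genes with all 6 libraries and with libraries left out; filled markers have an edgeR adjusted p under 0.05. Without cryo replicate 1, slco1d1, SLC22A23, slc22a3, slc47a2.1 and SLCO3A1 pass, in a fit where 6.6% of all tested genes pass. Without any other single library none does, in fits where 0.24% to 1.13% of all tested genes pass. The extreme values of slc47a2.1 without cryo replicate 1 and of SLCO1C1 with cryo replicate 1 alone come from fits with no count in the cryo group. They depend on edgeR's prior count.

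The libraries did not contribute evenly. Over the 20 tested carriers, cryo replicate 2 was the lowest of all 6 libraries for 10 genes, and fresh replicate 3 was the highest for 7. The 10 include slc47a2.1, where cryo replicates 2 and 3 tied at 0. The median deviation from the fresh mean, on the log2(CPM + 0.1) scale, was -0.23, -0.59 and -0.30 in cryo replicates 1, 2 and 3, against -0.16, 0.06 and 0.23 in fresh replicates 1, 2 and 3. Without fresh replicate 3 the median log2 change of the tested carriers was -0.0037, against -0.37 with all libraries. It was -0.18 without cryo replicate 2, and -0.17 with cryo replicate 1 as the only cryo library. Each of these fits tested 21 carriers, since slc22a16 also passed the filter, so the medians are not over the same genes. Without fresh replicate 3, slc22a16 entered at 0.83. The median there was the value of slc22a15, and the next gene below it, slc47a1, stood at -0.28.

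The 22 carriers too low to test held few counts, and these were unevenly spread over the libraries. Together they had 30, 12 and 16 counts in cryo replicates 1, 2 and 3, against 22, 46 and 20 counts in fresh replicates 1, 2 and 3. Of the 22, 13 had a count in fresh replicate 2, and from 3 to 7 in each other library. The carriers SLC10A2, slc22a13a, slc22a7b.1, slc47a4, slco1f2, slco1f3 and slco1f4 had counts in fresh replicate 2 alone, 26 in all, of which slco1f4 had 12 and slc22a7b.1 had 5. Fresh replicate 2 was the deepest library, and it held 18.2% of all genes with counts in a single library, against 29.8% in cryo replicate 1. The intestine list summed to 0.980 CPM in it and from 0.709 to 4.53 CPM in the other libraries. Of that list FABP2 had 3 counts in fresh replicate 2 alone, and apoa4a had 1 in cryo replicate 3 alone. The sum was largest in cryo replicates 1 and 3, where VIL1 had 45 and 28 counts. Of the kidney list SLC12A1 had 2 counts in fresh replicate 2 alone and SLC12A3 had 2 in fresh replicate 3 alone. A low copy of SLC20A1 (ENSDARG00000020114) had 24 counts in fresh replicate 2 and 0 to 4 in each other library. Whether other tissue added to these counts was not tested.

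Several carriers with known roles in liver or kidney of mammals were among these. The anion carrier gene SLC22A8 had 4 and 2 counts in fresh replicates 2 and 3 and none elsewhere. The carnitine carrier gene slc22a5 had 1 count and the related slc22a4, an ergothioneine carrier in mammals, had 5 in all. The slc22a7 anion carriers had 2 counts of slc22a7a in cryo replicate 2 and 5 of slc22a7b.1 in fresh replicate 2, while slc22a7b.2 and slc22a7b.3 had none. The genes SLC22A13, slco1f1 and the further SLCO3A1 row also had no count, which allows up to 0.0359 CPM over all 6 libraries, for counting error only.

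In the RefSeq gene order slco1f2, slco1f3, slco1e1 and slco1d1 follow each other without another protein-coding gene between them. Within this run slco1d1 alone was well counted, while slco1e1 had 5, 0 and 0 counts in cryo replicates 1, 2 and 3, against 1, 1 and 0 counts in fresh replicates 1, 2 and 3. The exchanger gene slc47a3 had 6, 4 and 5 counts in cryo replicates 1, 2 and 3, against 5, 5 and 1 counts in fresh replicates 1, 2 and 3. The gene slc22a16, a carnitine carrier in mammals, had 12, 2 and 10 counts in cryo replicates 1, 2 and 3, against 7, 8 and 7 counts in fresh replicates 1, 2 and 3.

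**Figure D4:**
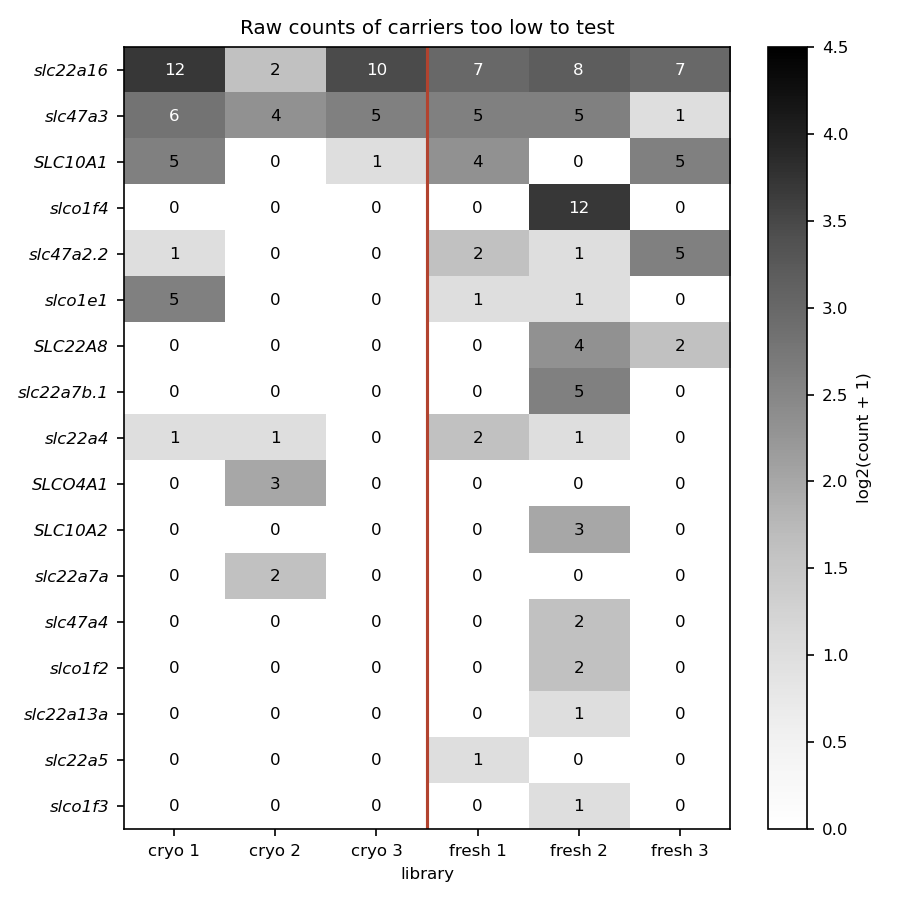
Raw counts, as deposited, of the 17 carriers that had a count but were too low to test, with cryo libraries left of the line and fresh libraries right of it; shading is log2(count + 1). Fresh replicate 2 has a count for 13 of them, and for 7 it is the only library with one.

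Beyond the carriers, a list of the bile acid pathway was followed through synthesis, export and control. Of its 34 matched genes 27 were tested and 0 passed by edgeR, where 6 had an unadjusted p under 0.05, against 18.5% of all tested genes. DESeq2 called 5 (NR1I2, ABCG5, NR1H4, AMACR and fgfr4), and it called 8.96% of all tested genes. Its median log2 change was -0.18, and 18 of 27 were negative. Of 14 symbols listed for synthesis and conjugation 8 were matched, and cyp46a1, akr1d1, acox2, baat, slc27a5 and slc27a2 were not. In this synthesis arm 9 of 10 tested genes were negative, with a median of -0.72, where 49.9% of all tested genes were negative. Several of the 9 negative signs came from copies listed as CYP27A1 or CYP8B1, so the 9 stand for fewer symbols. These signs were not all stable: CYP7B1 stood at -0.015, and CYP7A1 at -0.71 ± 0.90 turned to 0.27 by limma-voom and to 1.29 without fresh replicate 2. CYP7A1, the rate-limiting enzyme of bile acid synthesis, had 7.96, 8.80 and 9.88 CPM in cryo replicates 1, 2 and 3, against 5.70, 36.0 and 1.73 CPM in fresh replicates 1, 2 and 3. Fresh replicate 2 stood far above the other libraries. Of the 3 genes listed as CYP8B1, the sterol hydroxylase that sets the kind of bile acid made, ENSDARG00000053068 had 129, 59.4 and 83.6 CPM in cryo replicates 1, 2 and 3, against 118, 179.9 and 154 CPM in fresh replicates 1, 2 and 3, with a change of -0.73 ± 0.34 that did not pass. The copies ENSDARG00000097556 and ENSDARG00000097559 stayed at or below 5.23 CPM in every library.

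The export arm was mixed, with 4 of 8 tested genes negative. ABCB11, the bile salt export pump, had 295, 227 and 338 CPM in cryo replicates 1, 2 and 3, against 177, 185 and 207 CPM in fresh replicates 1, 2 and 3. It was higher in every cryo library than in any fresh one without passing (log2 0.60 ± 0.27, edgeR adjusted p = 0.283). ABCB4, a phospholipid pump gene in mammals, changed by 0.61 ± 0.28 and abcb11a by 1.13 ± 0.88, neither past the threshold. The counts of abcb11a were low, at 55, 8 and 5 in cryo replicates 1, 2 and 3. In fresh replicates 1, 2 and 3 they were 28, 12 and 3. The conjugate pump gene abcc2 had high and low libraries in both groups, with 1.81, 1.56 and 97.1 CPM in cryo replicates 1, 2 and 3, against 184, 1.96 and 195 CPM in fresh replicates 1, 2 and 3.

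Among the regulators, NR1H4, the bile acid receptor, had 8.67, 12.5 and 10.9 CPM in cryo replicates 1, 2 and 3, against 4.12, 4.30 and 2.87 CPM in fresh replicates 1, 2 and 3. The groups did not overlap, and the log2 change of 1.498 ± 0.30 narrowly missed the threshold (edgeR adjusted p = 0.0536; 7.71e-04 to 0.206 over the alternatives). It passed by DESeq2, and by edgeR with RLE factors (0.0496), with upper-quartile factors (0.0442), without the filter on low counts (0.0312), with vitellogenin genes left out (0.0486) and without cryo replicate 1 (0.0302). NR1I2, the xenobiotic receptor that controls carrier and pump genes in mammals, had 31.0, 20.005 and 33.1 CPM in cryo replicates 1, 2 and 3, against 50.03, 76.0 and 74.3 CPM in fresh replicates 1, 2 and 3, with a change of -1.25 ± 0.29 (edgeR adjusted p = 0.0751; 0.0102 to 0.273 over the alternatives). It passed by DESeq2 and without the filter on low counts. The corepressor gene NR0B2 (0.49 ± 0.70) and the hepatocyte factor gene HNF4A (1.28 ± 0.63) did not pass.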

How the data were processed

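Whole-number counts per Ensembl gene for 6 zebrafish liver libraries were used as the authors deposited them, in a single table. Per the labels' protocols RNA was extracted with Trizol, captured on poly-T beads and primed with random hexamers. Reads were aligned with HISAT2 per the file headers, to GRCz11 (danRer11) per the submitters' processing notes. How reads were counted, with what strand setting and on which annotation release, is not given in the sources used here. Thus antisense and overlapping genes cannot be told apart.

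Symbols from a gene name table matched 29201 of 32520 rows. Genes were kept by edgeR's filterByExpr (at least 0.605 CPM in 3 libraries) and tested with edgeR 4.0.16 (R 4.3.3): TMM scaling, a quasi-likelihood model with group as its only term, a two-sided test per gene, Benjamini-Hochberg adjustment over 12674 genes and a threshold of 0.05. The standard error is the log2 change over the square root of F. The procedure was run on simulated data in which genes of low mean level were left unchanged. That run thus does not cover changes in the lowest tested carriers, such as slc47a2.1, SLCO1C1, SLCO3A1 and slc22a21. Alternatives were other size factors and filters, DESeq2 1.42.0, limma-voom (limma 3.58.1) and a replicate block. Others were libraries left out, vitellogenin genes left out and thinning with a fixed seed. Of the 7 vitellogenin genes only vtg5 passed the filter, and library sizes were summed after it. Leaving the vitellogenin genes out thus took little but vtg5 from the main fit, and it is no separate check on the vitellogenin load.

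The carriers, the bile acid pathway list (synthesis, export, regulators) and the marker lists were chosen with earlier results of these data known, so no list was tested as a set. Named carriers were those past the threshold, the 12 of highest mean CPM, those without overlap and with a log2 change over 1 in size, and a fixed set of known carriers. SLC10A7, slco5a1a, other low carriers, the low copies of CYP8B1 and NR1I2, fgfr4, ABCG5 and AMACR were named after their values were seen. Not every list gene that was to be named is reported here. List symbols were matched in any case, then without a closing a or b. No libraries of a group looked like repeats of each other (chi-square over degrees of freedom of at least 48.0). Gene order came from the RefSeq table of GRCz12tu, in which 36 of the 42 symbols were found. Depth is given with the results, and 1 count was worth from 0.0544 to 0.142 CPM. Figures were drawn with matplotlib 3.10.9.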

Additional observations from a re-analysis of the deposited data

How the results depend on the processing

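Over 16 alternatives slc47a2.1 kept a negative change in all and passed in 9. The count of carriers past the threshold was 1 of 20 tested with all libraries. It was 3 of 37 without the filter on low counts, 6 of 20 by DESeq2, 2 of 20 by limma-voom and 5 of 20 at an adjusted p under 0.1. It was 0 with cryo replicates 2 and 3 both left out, where 7 carriers had an unadjusted p under 0.05 and the single cryo library was assumed to vary like the fresh ones, and 0 to 5 with each library left out. Over all genes 251 passed, against 705 without the filter, 1136 by DESeq2, 109 without cryo replicates 2 and 3, 721 at an adjusted p under 0.1, and 32 to 873 with each library left out. The share of all tested genes that passed was 1.98% with all libraries, 8.96% by DESeq2 and 2.03% by limma-voom, each of 12674 genes. Without the filter it was 3.23% of 21810 genes, and with each library left out it was 0.24% to 6.6%. The 721 at an adjusted p under 0.1 were of 12674 genes. The cause of these differences was not tested. The median log2 change of the tested carriers was -0.37, against -0.17 without cryo replicates 2 and 3 and -0.48 to -0.0037 with each library left out. Some of these fits tested 21 carriers in place of 20, so part of the movement may come from the set of genes. The median of the bile acid pathway list moved by less than its spread between libraries. Upper-quartile factors moved the median of all genes by the most among the scalings, to 0.086.

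Some changes took the other sign under some settings. That of slco5a1b, -0.02 with all libraries, was 0.012 after RLE scaling, 0.064 after upper-quartile scaling, 0.012 by DESeq2, 0.087 by limma-voom, 0.12 without cryo replicates 2 and 3, 0.0093 with vitellogenin genes left out and -0.29 to 0.24 with each library left out. That of SLC22A2, 0.01 with all libraries, was -0.13 by limma-voom and -0.52 to 0.29 with each library left out. CYP7A1, -0.71 with all libraries, had 0.27 by limma-voom and -1.18 to 1.29 with each library left out. Without cryo replicates 2 and 3, slc47a1 had 0.13 (-0.41 with all libraries) and SLC10A7 had -0.17 (0.72 with all libraries). With each library left out SLCO2A1 ranged from -0.56 to 0.20, slc22a15 from -0.36 to 0.050 and SLC22A31 from -0.63 to 0.31.

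Replicate numbers were not taken to pair the libraries, since no label says so and deviations from the group means correlated across genes at -0.07, -0.13 and 0.06 for numbers 1, 2 and 3. With the replicate block 0 carriers passed, where 8 had an unadjusted p under 0.05, and 33 genes passed in all. For slc47a2.1 the change with the block was -4.77 (adjusted p = 0.128). With the replicate block the change was -0.11 for SLC22A2, 0.061 for slco5a1b and 0.30 for CYP7A1. Not every library correlated best with its own number. Depth limits the 22 untested carriers, for which no difference of a few counts could be shown.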

Other observations

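The ratio of slco1d1 to SLC22A2 counts within a library, which depends on no scaling between libraries, did not overlap between the groups. It was 1.15, 0.83 and 1.21 in cryo replicates 1, 2 and 3, against 2.99, 3.06 and 3.33 in fresh replicates 1, 2 and 3. The ratio of slco1d1 to slc51a counts was 4.74, 2.36 and 2.995 in cryo replicates 1, 2 and 3, against 5.80, 7.94 and 6.03 in fresh replicates 1, 2 and 3. That of SLC22A18 to SLC22A2 was 0.0712, 0.0740 and 0.129 in cryo replicates 1, 2 and 3, against 0.271, 0.134 and 0.184 in fresh replicates 1, 2 and 3. That of slc51a to SLC22A2 was 0.241, 0.351 and 0.403 in cryo replicates 1, 2 and 3, against 0.516, 0.386 and 0.552 in fresh replicates 1, 2 and 3, which overlapped. These 4 pairs were chosen after the values were seen. A two-sided exact permutation test of the log2 ratio gave p = 0.1 for every ratio except that of slc51a to SLC22A2, the smallest that 3 against 3 libraries allow, and p = 0.2 for that one (0.133 and 0.20 after adjustment over the 4). No ratio passed, and with 3 libraries a group none could have, so the ratios are given as values alone.

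The growth factor receptor gene fgfr4, part of bile acid feedback in mammals, had 66.0, 54.6 and 43.9 CPM in cryo replicates 1, 2 and 3, against 364, 67.7 and 245 CPM in fresh replicates 1, 2 and 3. Fresh replicate 2 was low for both fgfr4 and abcc2, and it was the highest library for CYP7A1. AMACR, an enzyme of bile acid side chain shortening, had 5.30, 4.82 and 8.33 CPM in cryo replicates 1, 2 and 3, against 11.5, 13.4 and 13.1 CPM in fresh replicates 1, 2 and 3. The sterol exporter gene ABCG5 had 3.69, 1.70 and 2.44 CPM in cryo replicates 1, 2 and 3, against 3.76, 9.64 and 13.0 CPM in fresh replicates 1, 2 and 3. None of fgfr4, AMACR and ABCG5 passed by edgeR (adjusted p = 0.107, 0.115 and 0.129), with all 6 libraries and the filter on low counts, and all passed by DESeq2. Without that filter fgfr4 passed by edgeR (0.0363).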
